A study of Rattus rattus with 18 samples.

Results

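*Eif4ebp1* (ENSRNOG00000012582), *Creb3l1* (ENSRNOG00000005413) and *Bak1* (ENSRNOG00000000485) were described in the rat hypothalamic arcuate nucleus (ARC), as 3 of the 32883 genes counted in each library. They were chosen by identifier because the study lists all 3 among the genes that differed between CS and HFS rats and again between rats given a miR-211 mimic and rats given a miR-211 inhibitor. Values of those contrasts are therefore given as a description, nothing is read from calls counted in them, and the comparisons tested below concern the running group and the covariation of the genes within groups.

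The 3 genes belong to connected parts of the cellular stress machinery. *Eif4ebp1* encodes 4E-BP1, which binds the cap-binding protein eIF4E and holds back cap-dependent translation until the kinase mTORC1 phosphorylates it. *Creb3l1* encodes OASIS, a transcription factor anchored in the membrane of the endoplasmic reticulum (ER) that is cut free by proteolysis under ER stress and drives genes of collagen secretion, and it was first described in astrocytes. *Bak1* encodes a pore-forming member of the BCL2 family that, with BAX, permeabilizes the outer mitochondrial membrane in apoptosis. Neurons of the ARC that sense leptin and insulin, and the glia around them, are known to engage ER stress and translational control when rats eat a high-fat diet.

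The 18 libraries came from female Wistar rats, 1 rat each, and held RNA of ARC tissue punches. In the DIO/voluntary running experiment, diets started at day 21, and from day 90 the rats were housed alone for 4 weeks in cages with or without a running wheel. CS rats (n = 3) ate chow without a wheel, HFS rats (n = 3) ate a diet with 60% fat without a wheel, and HFR rats (n = 4) ate the same diet and ran voluntarily. In the miR-211 experiment, chow-fed rats that had arrived at day 60 were fasted overnight, received either MiRIDIAN hsa-miR-211-mimic (n = 4) or MiRIDIAN hsa-miR-211-hairpin inhibitor (n = 4) into the third ventricle through a cannula, and were killed 6 h later. The running experiment was carried out in 2 rounds, and the labels do not give the round of a library. Chow-fed runners and rats given the negative control were not analysed here, so each mimic value is relative to the inhibitor. In punches, a change in the number of cells of a type cannot be told apart from a change in RNA per cell.

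The 10 DIO libraries held 4680736 to 7494207 counts on genes, and the 8 libraries after miR-211 infusion held 1275263 to 6615927. Normalised read counts are given as CPM, the counts scaled to a common library size with edgeR's TMM factors. The experiments used different RNA extraction kits, so levels were not compared between them, and because transcript ends were counted, levels are compared within a gene only. *Pomc*, which marks satiety neurons of the ARC, was detected in every library, but between 169.8 and 871 CPM in CS, 841 and 1050 in HFS, 182 and 1053 in HFR, 51.3 and 1032 in mimic and 225 and 592 in inhibitor, so the punches held unequal amounts of *Pomc* RNA. Counts of 8 DIO libraries and of all 8 miR-211 libraries had a constant ratio to a column of the per-rat values that the study lists for its changed genes. CS replicate 2 and HFS replicate 2 matched none of these columns, and DIO results are therefore given with and without these 2 libraries.

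*Eif4ebp1* stood at 26.9, 43.5 and 17.0 CPM in CS replicates 1 to 3, at 39.8, 32.3 and 48.0 CPM in the HFS replicates and at 24.9, 30.2, 30.7 and 35.3 CPM in the HFR replicates. The group means were 29.1 ± 13.4 (SD, n = 3), 40.1 ± 7.87 (SD, n = 3) and 30.3 ± 4.26 (SD, n = 4) CPM. The CS group was the widest, since its replicates 2 and 3 lay 2.56-fold apart, and CS replicate 2 exceeded 2 of the 3 HFS libraries. In the miR-211 experiment the mimic libraries held 14.6, 27.1, 17.1 and 25.9 CPM of this translational repressor and the inhibitor libraries 49.3, 48.9, 28.5 and 46.0 CPM. Every mimic library lay below every inhibitor library, by a narrow margin between mimic replicate 2 and inhibitor replicate 3.

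*Creb3l1* stood at 29.4, 47.4 and 28.8 CPM in CS, at 51.9, 36.3 and 64.4 CPM in HFS and at 34.1, 36.5, 30.0 and 43.9 CPM in HFR. Means were 35.2 ± 10.6 (SD, n = 3), 50.9 ± 14.1 (SD, n = 3) and 36.1 ± 5.82 (SD, n = 4) CPM. The ER-stress factor was thus lowest in CS replicates 1 and 3 and highest in HFS replicates 1 and 3, with CS replicate 2 above and HFS replicate 2 below the rest of their groups. The mimic libraries held 22.9, 22.8, 17.1 and 19.6 CPM and the inhibitor libraries 40.2, 51.8, 30.6 and 30.6 CPM. The mimic values spread by a coefficient of variation of 13.7%, close to the 14.5% that counting alone gives at this depth, and stayed clear of the inhibitor values.

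*Bak1* stood at 19.5, 24.8 and 12.0 CPM in CS, at 23.1, 23.5 and 32.2 CPM in HFS and at 20.7, 23.6, 22.8 and 23.7 CPM in HFR. The apoptosis effector was nearly level over the HFR rats, whose coefficient of variation of 5.99% was below the 8.83% expected from counting, against 34.2% in CS and 19.5% in HFS. Means were 18.8 ± 6.41 (SD, n = 3), 26.3 ± 5.13 (SD, n = 3) and 22.7 ± 1.36 (SD, n = 4) CPM. The mimic libraries held 14.9, 19.0, 15.8 and 22.8 CPM and the inhibitor libraries 26.6, 40.2, 32.6 and 30.9 CPM. Here too no mimic library reached the lowest inhibitor library.

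**Figure D1:**
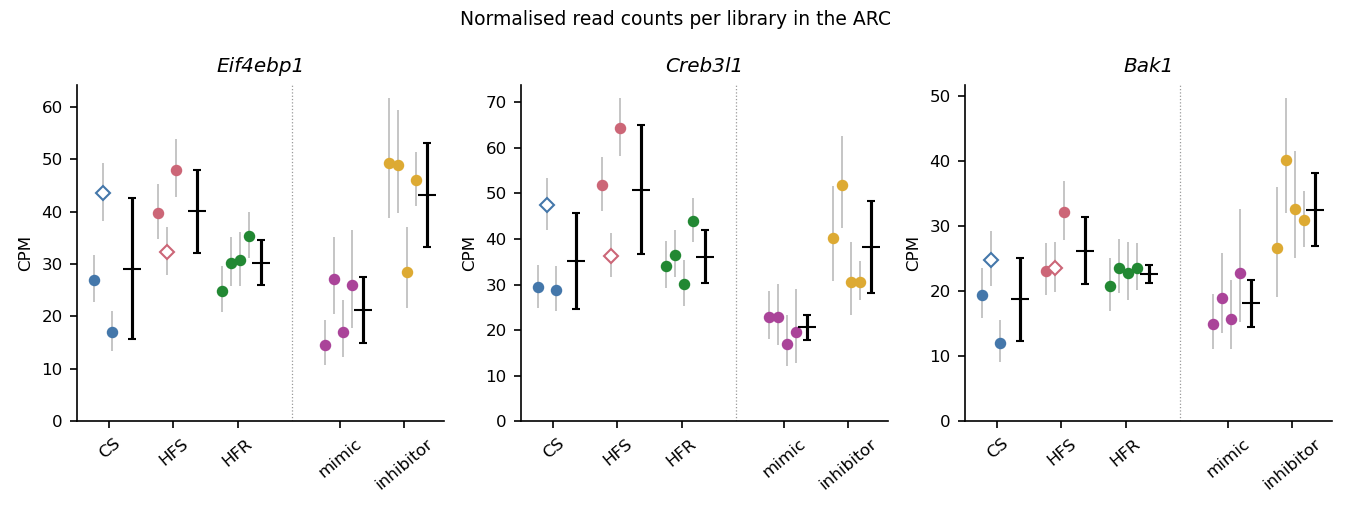
CPM of *Eif4ebp1*, *Creb3l1* and *Bak1* on linear axes that start at 0, with 1 point per library in replicate order, grey lines for the 95% counting interval and black bars for the group mean ± SD. Open diamonds are CS replicate 2 and HFS replicate 2, and the dotted line separates the experiments, whose levels are not comparable. CS and HFS overlap for all 3 genes, while every mimic library lies below every inhibitor library.

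High-fat feeding was addressed by HFS vs. CS. The fitted log2 fold change was 0.45 (SE 0.28) for *Eif4ebp1*, 0.53 (SE 0.24) for *Creb3l1* and 0.48 (SE 0.25) for *Bak1*, which are 1.37-, 1.44- and 1.40-fold higher means in HFS. The groups overlapped for all 3 genes, while 4.81% of genes had every HFS library above every CS library. At an adjusted p under 0.1, edgeR called 0 of the 3, beside 0.00841% of the 11892 genes tested, and DESeq2 also called 0, beside 0.0336%. At an unadjusted p under 0.05 the count was 1 of 3, *Creb3l1*, beside 4.47% of genes. The rule used this contrast, so nothing is read from these counts. Single libraries moved these values in both directions. Without CS replicate 3, *Eif4ebp1* was 0.19 and *Bak1* 0.25, without HFS replicate 3, *Creb3l1* was 0.32 and *Bak1* 0.31, and without CS replicate 2 the 3 genes were 0.87, 0.81 and 0.74.

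The pair of libraries that matched no listed rat showed the opposite order. *Eif4ebp1* was 43.5 CPM in CS replicate 2 (95% counting interval 38.2 to 49.3) and 32.3 CPM in HFS replicate 2 (28.0 to 37.1). *Creb3l1* was 47.4 CPM (41.9 to 53.5) against 36.3 CPM (31.7 to 41.4), and *Bak1* was 24.8 CPM (20.8 to 29.2) against 23.5 CPM (19.9 to 27.6). The log2 ratios of HFS to CS in this pair were -0.43, -0.38 and -0.08, from 1 rat per group, so there is no replicate check, and the intervals cover counting error only. Without both libraries the fitted log2 fold changes of HFS vs. CS were 1.00 (SE 0.27), 1.01 (SE 0.23) and 0.81 (SE 0.29). All 3 genes then had HFS above CS in every library, as did 20.9% of genes, and edgeR called 0 of the 3, beside 0.00833% of 12003 genes. These values rest on 2 rats per group, all of which match rats in the values behind the choice of the genes.

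The running group was not used to choose the genes, although its comparisons share the HFS or the CS libraries with a contrast that was. The choice favours high HFS and low CS values, and so a negative HFR vs. HFS and a positive HFR vs. CS. The p-values of these comparisons do not correct for that. Compared with HFS, HFR had a log2 fold change of -0.40 for *Eif4ebp1* (SE 0.26, 95% interval -0.94 to 0.14), -0.49 for *Creb3l1* (SE 0.22, -0.97 to -0.01) and -0.21 for *Bak1* (SE 0.23, -0.70 to 0.28). *Creb3l1* thus had the lowest HFR level relative to HFS, 1.40-fold below it, and *Bak1* the smallest difference. None passed edgeR's test (adjusted p = 0.989 for each), where 0% of 11892 genes were called, and DESeq2 called none of the 3, beside 0.00841% of genes. Before adjustment *Creb3l1* alone was under 0.05, beside 2.56% of genes lower in HFR at that level.

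Compared with CS, HFR had a log2 fold change of 0.05 for *Eif4ebp1* (SE 0.26, -0.50 to 0.61), 0.04 for *Creb3l1* (SE 0.23, -0.45 to 0.53) and 0.27 for *Bak1* (SE 0.24, -0.23 to 0.77). The HFR means of the translational repressor and the ER-stress factor were thus within a fitted 1.04-fold of the CS means. No member passed the test (edgeR adjusted p of 0.995 or more, beside 0.0168% of genes called, with none under an unadjusted 0.05, where 4.28% of genes were, and none called by DESeq2, beside 0.151% of genes). Each of the 3 intervals holds differences of either sign.

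The HFR mean lay between those of CS and HFS for all 3 genes, nearest to CS for *Eif4ebp1* and *Creb3l1*. The choice of the genes favours such an order. Without HFS replicate 3, HFR vs. HFS was -0.25 for *Eif4ebp1*, -0.28 for *Creb3l1* and -0.04 for *Bak1*, so each difference was smaller without that library. Without CS replicate 2 and HFS replicate 2, HFR vs. HFS was -0.53 (SE 0.22) for *Eif4ebp1*, -0.68 (SE 0.19) for *Creb3l1* and -0.28 (SE 0.24) for *Bak1*. *Eif4ebp1* and *Creb3l1* had every HFR library below every HFS library, as did 7.84% of genes, and *Bak1* overlapped. Both were under 0.05 before adjustment, beside 2.64% of genes lower in HFR, but edgeR called 0 of the 3 and 0% of genes. HFR vs. CS was 0.47 (SE 0.24), 0.33 (SE 0.20) and 0.53 (SE 0.26), and edgeR called 0 of the 3, beside 0.0167% of genes (adjusted p of 0.833 to 0.843). The HFS and CS libraries left in these comparisons match rats behind the choice of the genes, which favours high HFS and low CS values. Values without CS replicate 2 and HFS replicate 2 are therefore a description.

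**Figure D2:**
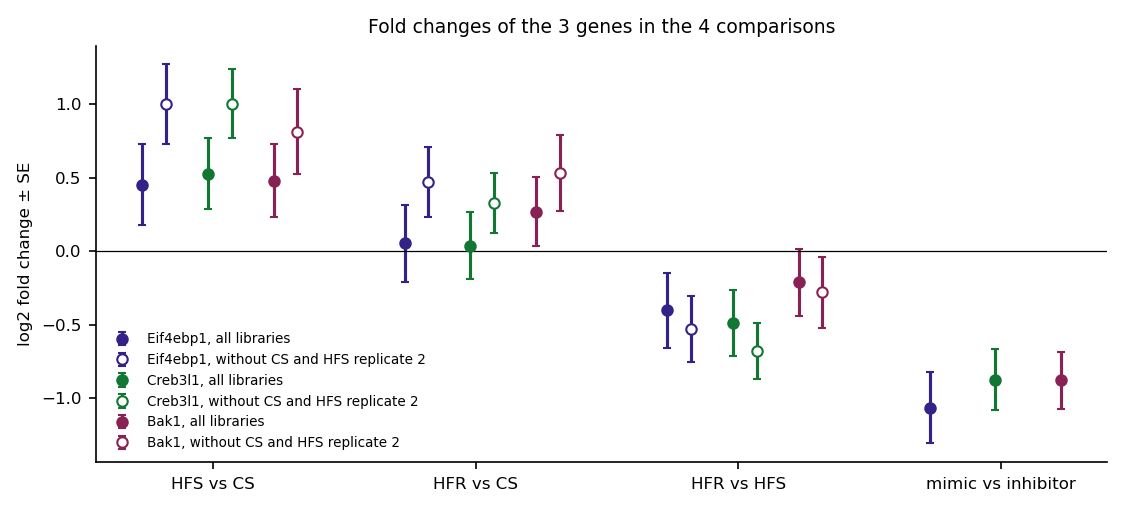
Log2 fold changes ± SE from edgeR for the 3 genes in 4 comparisons, with filled points for all libraries and open points without CS replicate 2 and HFS replicate 2. HFS vs. CS and HFR vs. CS lie higher in the open points, from 0.45 to 1.00 and from 0.05 to 0.47 for *Eif4ebp1*, whereas HFR vs. HFS stays below 0 in both. Comparisons within the DIO experiment share libraries.

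Mimic rats were compared with inhibitor rats to address an acute rise or loss of miR-211 activity. Log2 fold changes were -1.06 (SE 0.24) for *Eif4ebp1*, -0.87 (SE 0.21) for *Creb3l1* and -0.88 (SE 0.19) for *Bak1*, so the mimic means were 2.09-, 1.83- and 1.84-fold below those of the inhibitor. All 3 genes had every mimic library below every inhibitor library, as did 3.71% of the 9625 genes tested. At an adjusted p under 0.05, edgeR called 0 of the 3 beside 0.447% of genes, DESeq2 called 3 of 3 beside 1.83%, and all 3 were under an unadjusted 0.05 in edgeR, beside 9.9% of genes. The study chose the genes on this contrast in the same libraries, so these counts describe the choice. Among all genes the 3 ranked 208th, 281st and 279th from the most negative fold change.

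Covariation over libraries was then examined, because the rule used only differences between groups. In the DIO experiment the order of libraries was similar for the 3 genes, with HFS replicate 3 the highest and CS replicate 3 the lowest for each. Over the 10 libraries Pearson's r of log2 CPM was 0.86 for *Eif4ebp1* with *Creb3l1*, 0.92 for *Eif4ebp1* with *Bak1* and 0.74 for *Creb3l1* with *Bak1*, and Spearman's rho was 0.90, 0.87 and 0.87. The difference of HFS and CS enters these values, so they are a description.

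Deviations from the group means remove that difference but are not free of the choice of the genes. CS replicate 2 and HFS replicate 2 match no listed rat, while the other CS and HFS libraries do. A choice on those rats can set these 2 libraries apart from their groups for all 3 genes alike. *Eif4ebp1* and *Bak1* deviated together (r = 0.94, exact two-sided permutation within groups p = 0.0174, adjusted over the 3 pairs 0.0260, higher than the rank correlation of rho = 0.76 with p = 0.0926 and adjusted p = 0.133 by the same test). Only 7 of 11891 genes had a higher r with *Eif4ebp1* by this measure. *Eif4ebp1* and *Creb3l1* had r = 0.80 (exact permutation p = 0.0150, adjusted 0.0260) and rho = 0.78 (exact permutation p = 0.0475, adjusted 0.133), whereas *Creb3l1* and *Bak1* had r = 0.68 (p = 0.135 by exact permutation) and rho = 0.64 (p = 0.133). The 2 libraries farthest from the median were then left out, with the group means of all libraries kept. Without CS replicates 2 and 3, r was 0.77 for *Eif4ebp1* with *Bak1* and 0.80 for *Eif4ebp1* with *Creb3l1*. Without CS replicate 2 and HFS replicate 2, it was 0.56 for *Creb3l1* with *Bak1*.

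The relations of *Creb3l1* rested largely on CS replicate 2 and HFS replicate 2. Those libraries were left out, a choice made after seeing the data, and the group means were taken anew. The r of the deviations then fell to 0.47 for *Eif4ebp1* with *Creb3l1* (n = 8, exact permutation p = 0.156, adjusted over the 3 pairs 0.198). For *Creb3l1* with *Bak1* it fell to 0.40 (exact permutation p = 0.198, adjusted 0.198). It was 0.90 for *Eif4ebp1* with *Bak1* (exact permutation p = 0.0312, adjusted 0.0938, so no longer under 0.05 after adjustment), where 96 permutations allow no p under 0.0104. High values of r were common, since 5% of all genes had an r of 0.71 or more with *Eif4ebp1* within DIO groups.

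Mimic and inhibitor libraries did not overlap for any of the 3 genes, so r was taken within groups. Within groups r was 0.39 for *Eif4ebp1* with *Creb3l1*, 0.48 for *Eif4ebp1* with *Bak1* and 0.28 for *Creb3l1* with *Bak1* (n = 8, exact two-sided permutation p = 0.380, 0.269 and 0.545, adjusted 0.545 for each). Spearman's rho was 0.38, 0.40 and 0.07 (exact permutation p = 0.340, 0.339 and 0.896, with adjusted values of 0.510, 0.510 and 0.896). Without the 2 farthest libraries r was 0.53, 0.51 and -0.10. Within the mimic and inhibitor groups, 12.6% of genes had a higher r with *Eif4ebp1* than *Bak1* had.

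**Figure D3:**
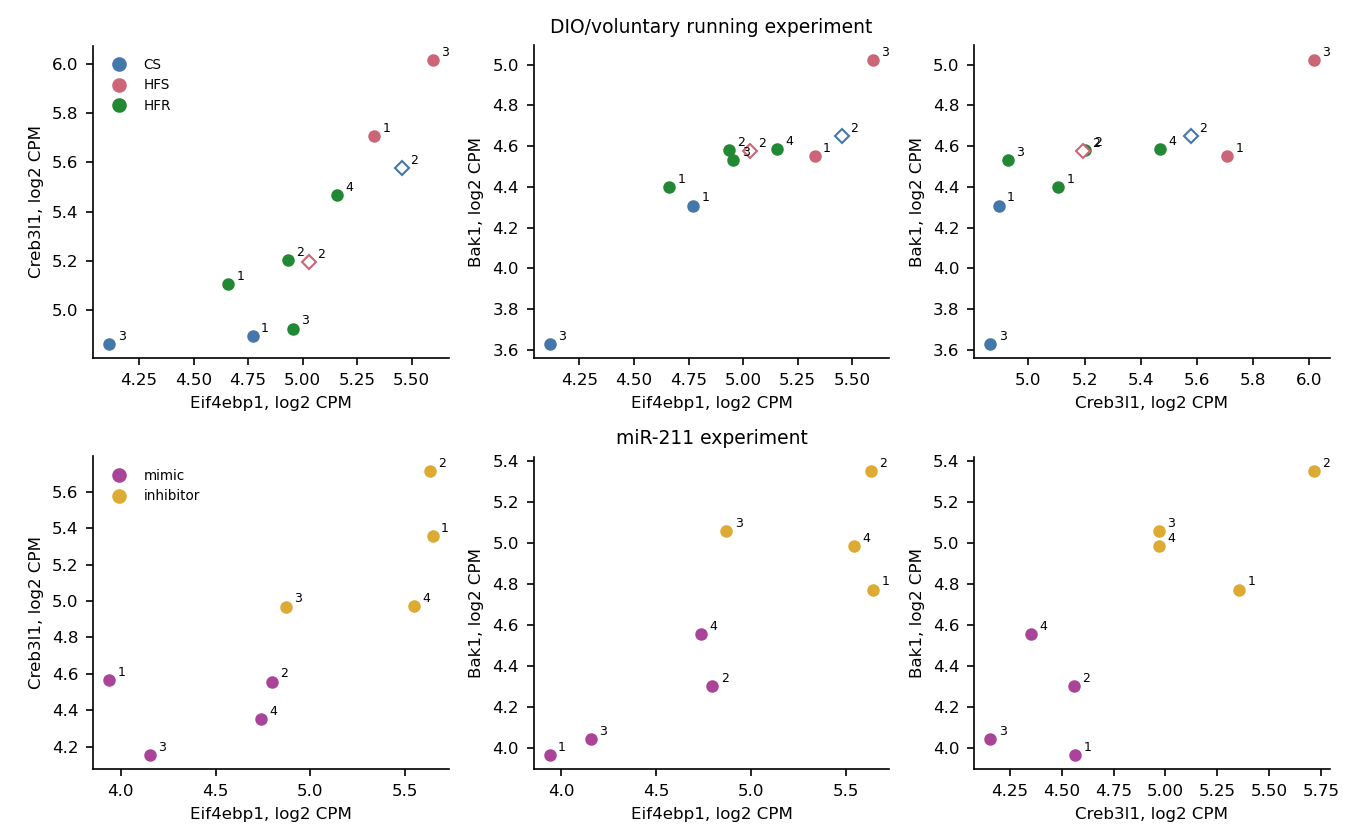
Log2 CPM of each pair of genes, with 1 point per library labelled by replicate, for the DIO experiment (upper row) and the miR-211 experiment (lower row). Open diamonds are CS replicate 2 and HFS replicate 2. DIO libraries run from CS replicate 3 at the lower left to HFS replicate 3 at the upper right in each panel, and in the lower row the 2 groups separate on both axes.

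The genes with the most similar pattern were sought among 9364 genes tested in both experiments, by the mean of r over the 10 DIO and the 8 miR-211 libraries, and only the 496 with a symbol, all taken from the study's own lists of changed genes, could be named. This mean r contains the differences of HFS and CS and of mimic and inhibitor on which members and candidates were listed, so it is a description of likeness that the choice favours. For *Eif4ebp1* they were *Sertad1*, a transcriptional co-regulator of the cell cycle (mean r = 0.93), *Fgl2*, a fibrinogen-like protein of immune and endothelial cells (0.91), and *Bak1* (0.89). For *Creb3l1* they were *Rela*, the p65 subunit of NF-kB (0.90), the phospholipid scramblase *Plscr3* (0.85) and *Sertad1* (0.84). For *Bak1* they were *Eif4ebp1* (0.89), the ubiquitin ligase adaptor *Spsb1* (0.89) and the focal adhesion protein *Zyx* (0.87). *Sertad1* and *Rela* ranked first of all 9364 genes for *Eif4ebp1* and *Creb3l1*. Deviations from the group means in the same libraries gave lower values for some. *Creb3l1* with *Rela* had r = 0.98 within DIO groups (0.93 without CS replicate 2 and HFS replicate 2) and 0.76 within the mimic and inhibitor groups. *Eif4ebp1* with *Sertad1* had 0.89 (0.66 without those libraries) and 0.91, and *Creb3l1* with *Sertad1* had 0.76 (0.17 without them) and 0.67. *Bak1* with *Spsb1* had 0.77 and 0.69, while *Eif4ebp1* with *Bak1* had 0.94 and 0.48.

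Other genes of translation, ER stress and apoptosis were looked up in 7 lists with 163 genes besides the members. Only 23 had an identifier, and these names come from the study's lists, so the lists as such are not described. In HFR vs. HFS, the 12 genes that the study does not list for the DIO experiment were all negative, with a median log2 fold change of -0.21 against -0.01 over all genes, where 51.4% of genes were negative, but edgeR and DESeq2 called 0, and 1 of the 12 was under an unadjusted p of 0.05, beside 4.24% of genes. That gene was *Tnfrsf1a*, the main TNF receptor of cell death signalling, at 23.1 ± 2.38 CPM in HFR (SD, n = 4) and 34.8 ± 5.07 CPM in HFS (SD, n = 3), a log2 fold change of -0.59 (SE 0.19, edgeR adjusted p = 0.989). *Pmaip1*, which encodes the BAK and BAX activator NOXA, had -0.69 (SE 0.54), and *Ddit4*, an inhibitor of mTORC1 upstream of 4E-BP1, had -0.07 (SE 0.18). The same 12 genes had 8 positive and 4 negative values in HFS vs. CS, with a median of 0.18, and 5 positive and 7 negative values in HFR vs. CS, and edgeR and DESeq2 called 0 in both, with 1 and 3 of the 12 under an unadjusted 0.05, beside 4.47% and 4.28% of genes.

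The 11 genes that the study lists for the DIO experiment, which are no independent evidence of a direction, include those nearest to the ER role of *Creb3l1*. *Serpinh1*, *Fkbp10* and *Plod1*, which fold and modify collagen in the ER, had log2 fold changes in HFS vs. CS of 0.41 (SE 0.32), 0.60 (SE 0.31) and 0.57 (SE 0.16), and in HFR vs. HFS of -0.36 (SE 0.30), -0.56 (SE 0.29) and -0.36 (SE 0.15). Markers of meningeal fibroblasts and mural cells, which secrete collagen, had medians of the same signs. The median log2 fold change over 6 genes was 0.63 in HFS vs. CS, where 5 were positive. In HFR vs. HFS it was -0.92, with 1 positive. The study lists all 6 for the DIO experiment too, and their part in these values was not tested. *Ero1a*, the oxidase of ER disulfide formation, had -0.28 (SE 0.24) and 0.22 (SE 0.23), the opposite signs. In mimic vs. inhibitor, where the study lists none of these 4, their values were -0.16 (SE 0.15), -0.09 (SE 0.18), 0.18 (SE 0.18) and -0.12 (SE 0.15). Each was smaller in size than the -0.87 of *Creb3l1*, which the study lists there, so the choice favours this gap.

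In mimic vs. inhibitor, 9 genes that the study does not list for this experiment had 4 positive and 5 negative values and a median of -0.09. Their absence from the study's list for this contrast favours values near 0. Among them edgeR called 0, beside 0.447% of all genes, and DESeq2 called 1, beside 1.83%. In edgeR 1 of the 9 was under an unadjusted p of 0.05, beside 9.9% of all genes. That gene was *Atf3*, a transcription factor of the integrated stress response, at 8.99 ± 6.98 CPM in mimic and 30.6 ± 11.4 CPM in inhibitor (SD, n = 4 each), a log2 fold change of -1.73 (SE 0.53, edgeR adjusted p = 0.288, DESeq2 adjusted p = 0.0265). *Slc3a2* (-0.22, SE 0.14), *Aars1* (0.09, SE 0.15) and *Impact* (0.07, SE 0.18) were near 0. The 12 listed genes were all lower in mimic by the study's own choice. Of them *Tnfrsf1a* (-0.93, SE 0.17) and *Gadd45a*, which is induced by DNA damage (-1.07, SE 0.19), were called by edgeR, and *Eif4e2*, a cap-binding relative of eIF4E, had -0.88 (SE 0.19).

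**Figure D4:**
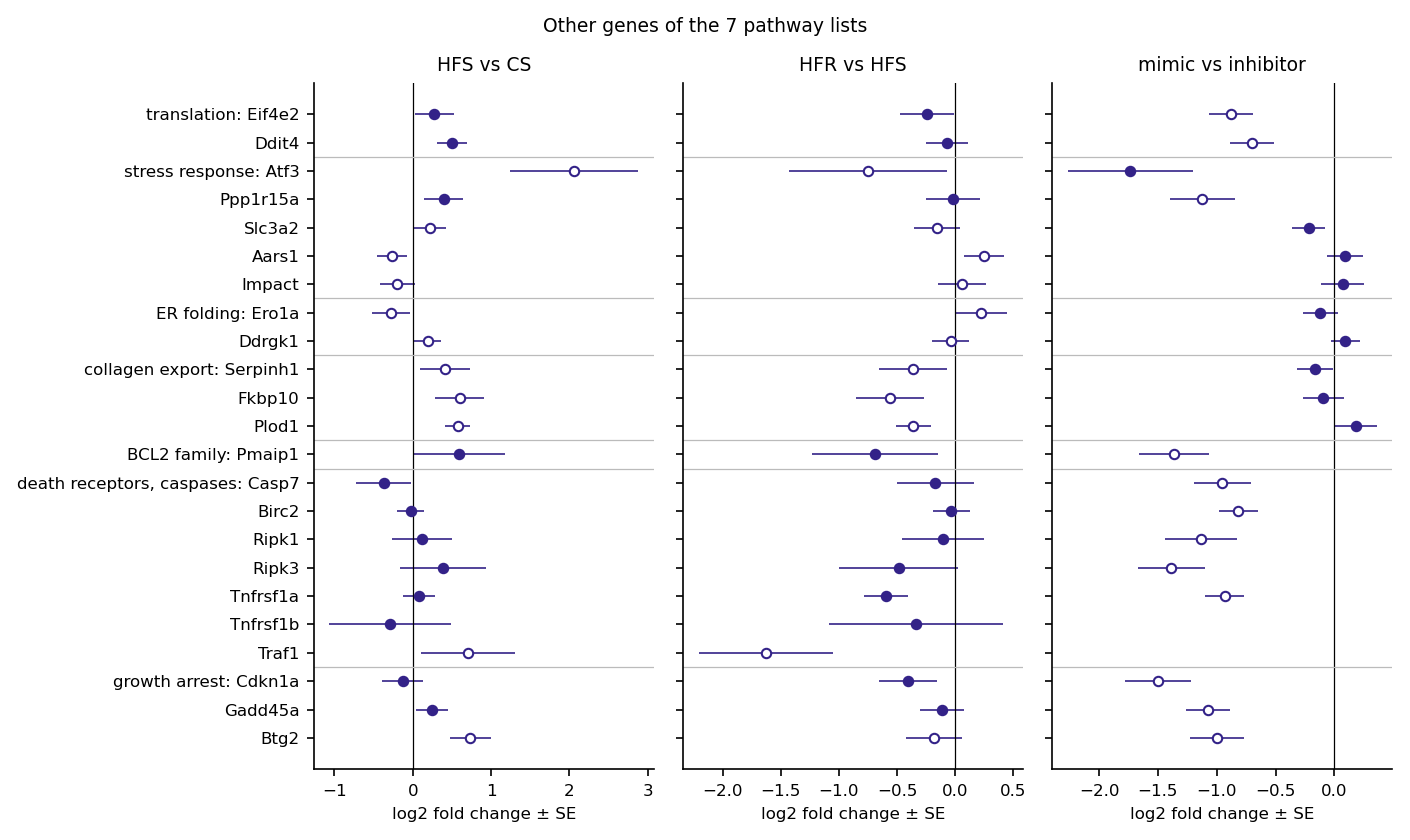
Log2 fold change ± SE of the other list genes that had an identifier and passed the low-count filter, with grey lines between lists and filled points for genes that the study does not list for that experiment. In HFR vs. HFS the 12 filled points all lie below 0, with a median of -0.21, and in mimic vs. inhibitor the filled points lie around 0 apart from *Atf3* at -1.73. *Tnfrsf1b* and *Traf1* did not pass the filter in the miR-211 experiment.

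Markers of other cell types also varied over the libraries and groups. Summed CPM of 6 of 9 microglia and macrophage markers ranged from 296 to 516.5 in CS, 468.5 to 626 in HFS and 306.5 to 437 in HFR, and from 337 to 596 in mimic and 475 to 1006 in inhibitor. In HFR vs. HFS all 6 of these markers were negative, with a median log2 fold change of -0.62. Of the 6, 5 were under an unadjusted p of 0.05, beside 2.56% of genes lower in HFR, while edgeR called 0. The study lists 5 of the 6 for HFS vs. CS, which shares the HFS libraries, so the choice favours this direction. The sum of 6 of 12 meningeal fibroblast and mural cell markers ranged from 184 to 587.5 in CS, 398 to 493 in HFS, 145 to 423 in HFR, 192.5 to 293 in mimic and 244 to 430 in inhibitor. The 2 oligodendrocyte markers with an identifier, of 6, are both listed by the study for HFS vs. CS. Their median log2 fold change there was 0.85, and both were under an unadjusted p of 0.05, beside 4.47% of genes. That count describes the choice, and edgeR called neither. CS replicate 2, the CS library with the highest level of all 3 genes, also had the highest CS sum of the microglia and macrophage markers (516.5). Its sum of the meningeal and mural cell markers was the highest in CS too (587.5, against 184 and 187 in the other CS libraries). Its sum of 7 of 12 neuron markers was the lowest in CS (2451, against 3956 and 3978). Sums of 4 of 8 ARC markers were 545, 1010 and 250 in CS replicates 1 to 3, with 950 to 1174 in HFS and 250 to 1232 in HFR. For 2 of 7 astrocyte markers they were 618, 1508 and 544 in CS, 1164 to 2799 in HFS and 462 to 1801 in HFR. The CS libraries thus had the order of the 3 genes in both sums, while their endothelial sums were level (394, 400 and 408). Summed CPM of 5 of 7 neutrophil markers was 60.9 to 123.9 in mimic and 84.0 to 792 in inhibitor, and 1.99 to 6.52 in the DIO libraries, where up to 3 of the 5 were at 0. The sum of 6 of 10 endothelial markers was 260 to 320 in mimic and 309 to 461 in inhibitor. The study lists all 6 for the miR-211 experiment, and edgeR called 1 of them lower and 1 higher in mimic, beside 0.447% of genes.

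Inhibitor replicate 1 had a neutrophil sum of 84.0, within the mimic range, and the second-lowest microglia sum of the experiment. The endothelial sum was 405, above the mimic range, and the oligodendrocyte sum 9615, within it. This library held 49.3 CPM of *Eif4ebp1* and 40.2 CPM of *Creb3l1*, the highest and second-highest values of the 8 libraries. For *Bak1* it was the lowest inhibitor library, at 26.6 CPM. It also had the highest level of *Nes*, the only ependyma and tanycyte marker of 7 with an identifier, at 65.4 CPM against 4.13 to 24.3 in the other 7 libraries, a gene named after its values were seen. Without inhibitor replicate 2, which had the highest neutrophil and microglia sums, the log2 fold changes of mimic vs. inhibitor were -1.01, -0.69 and -0.77 for *Eif4ebp1*, *Creb3l1* and *Bak1*. *Gfap*, an astrocyte marker, spanned 468 to 1342 CPM in CS, 1015 to 2664 in HFS, 377 to 1651 in HFR, 1118 to 2886 in mimic and 1870 to 2660 in inhibitor. Of the 2 astrocyte markers with an identifier, 1 was positive in mimic vs. inhibitor, and their median log2 fold change was -0.06. The part of cell composition in the differences of the 3 genes was not tested.

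**Figure D5:**
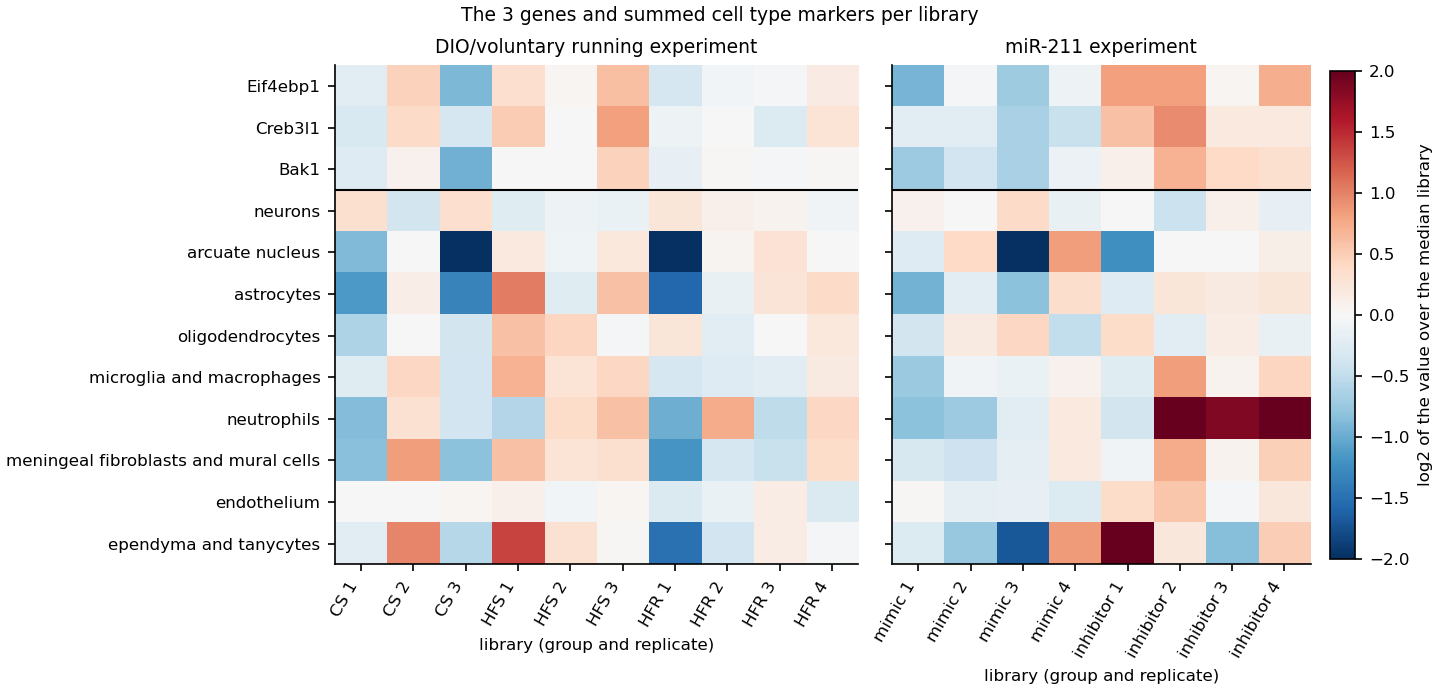
Each cell of the map is the CPM of a gene, or the summed CPM of a marker list, in 1 library as log2 over the median library of that experiment, with colours capped at -2 and 2. In the DIO experiment CS replicate 2 is high and CS replicate 3 low for the 3 genes and for meningeal and microglia markers. For arcuate nucleus and astrocyte markers CS replicates 1 and 3 and HFR replicate 1 are low, and CS replicate 2 lies near the median library. In the miR-211 experiment inhibitor replicate 1 is high for *Eif4ebp1*, with neutrophil and microglia sums below the median library and endothelial and oligodendrocyte sums above it.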

How the data were processed

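According to the study's methods and the labels, MARS-seq was applied to bulk RNA, which reads the 3′ ends of transcripts. Reads were trimmed (Cutadapt), aligned to Rnor6 (STAR 2.7.9a), cleared of duplicates (SAMtools) and assigned to Ensembl genes with HTSeq 0.13.5, ignoring strand. The authors deposited raw counts per gene, with no scaling. Molecular identifiers were used to correct the counts of the miR-211 libraries, and whether this was done for the DIO libraries is not given in the sources used here. Reads shared by overlapping genes or with several alignments are not in the counts, and the DIO lines for unassigned reads (those outside genes were 22.4% to 26.3% of all reads in the file) were left out of library sizes and tests. The labels give the organism as Rattus rattus, while the identifiers are those of the Rnor6 annotation.

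Samples were grouped by their titles. Counts were fitted in R 4.3.3 with edgeR 4.0.16 (filterByExpr, TMM, robust quasi-likelihood), 10 DIO libraries in 1 fit and 8 miR-211 libraries in another, with p-values adjusted by Benjamini-Hochberg over every gene in the fit and calls at an adjusted p under 0.1 (DIO) and 0.05 (miR-211). P-values measure the spread between rats. Log2 CPM used a prior count of 2. Correlations used Python 3.11.15 with numpy 2.4.6 and scipy 1.17.1, and exact permutation within groups. The fits were tested on simulated data. DESeq2 1.42.0 and other normalizations, filters, thresholds and libraries were tried as alternatives. A library matched a listed rat where the interquartile range of the log2 ratio over genes was under 0.01, and it was at least 0.384 for the 2 others. No pair of libraries was identical.

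Members, gene lists, markers and tests were chosen with earlier results of these data known. Named genes are the 3 members, list genes with an identifier that passed the filter, the 3 most similar genes of each member, and *Pomc* and *Gfap*. Symbols came from identifier and name pairs of 606 genes in the study's lists. Sequences and coordinates were not used here. One gene of the lists is not reported here.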

Additional observations from a re-analysis of the deposited data

Results flagged for a closer look

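*Eif4ebp1* in the inhibitor group held 1 library far from the others. Inhibitor replicate 3 was at 28.5 CPM and the other 3 libraries were at 46.0 to 49.3 CPM, so the gap was 0.84 of the group's range, above the 95% critical value of Dixon's test for 4 libraries. The same check over the 9 groups of 4 libraries (3 genes in HFR, mimic and inhibitor) raised no other result, and chance alone raises about 1 in 20. *Creb3l1* in the same library was 30.57 CPM, the lowest of its group by a narrow margin to the 30.61 of inhibitor replicate 4. *Bak1* was 32.6 CPM, inside the range of its group. Without this library the log2 fold change of *Eif4ebp1* in mimic vs. inhibitor was -1.21 (SE 0.22).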

How the results depend on the processing

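With CS replicate 2 and HFS replicate 2 left out, HFS vs. CS rose to 1.00 for *Eif4ebp1* and 1.01 for *Creb3l1*, and r of the within-group deviations moved to 0.47 (*Eif4ebp1* with *Creb3l1*) and 0.40 (*Creb3l1* with *Bak1*), an alternative added after seeing the data. Same-numbered libraries deviated together weakly or not at all (correlations of -0.12 to 0.15 in the DIO and 0.05 to 0.21 in the miR-211 experiment). These values cannot show whether the numbers pair the rats, and the main fits left the numbers out. With the replicate number as a block, HFR vs. CS turned to -0.0034 for *Eif4ebp1* and -0.062 for *Creb3l1*, HFR vs. HFS was -0.50, -0.61 and -0.24, and genes called were 0 in HFS vs. CS, 0 in HFR vs. CS and 2 in HFR vs. HFS, with no member called. Leaving out 1 library at a time, HFR vs. CS ranged from -0.21 to 0.47 for *Eif4ebp1* and from -0.083 to 0.33 for *Creb3l1* (both extremes from CS replicates 3 and 2), and r of *Creb3l1* with *Bak1* in the miR-211 experiment from -0.29 (without inhibitor replicate 2) to 0.47. HFR vs. HFS stayed negative and mimic vs. inhibitor between -1.22 and -0.69 for the 3 genes.

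Members called in mimic vs. inhibitor (0 as reported) were 3 with DESeq2, 3 without a low-count filter, 1 at an adjusted p under 0.1 (*Bak1*) and 0 to 1 with a library left out (*Eif4ebp1* without inhibitor replicate 3). Genes called there (43) were 176, 125 and 79 in the same settings and 0 to 111 with a library left out. Genes called in HFS vs. CS (1) were 4 with DESeq2, 0 at an adjusted p under 0.05, 0 with only the 2 groups compared and 0 to 2 with a library left out. In HFR vs. CS (2) they were 18 with DESeq2, 8 without the filter and 0 to 3, and in HFR vs. HFS (0) they were 1 with DESeq2. The cause of these changes was not tested. A member had 25 to 402 counts per library. Counting error alone was 5.68% to 16.0% for a single library at the mean count of its group, and larger in libraries with fewer counts.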
